A study of Mus musculus with 2 samples.

Results

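The genes described here are 7 Src family tyrosine kinases (Lck, Lyn, Fyn, Blk, Fgr, Src and Yes1) and Csk, the kinase that restrains them, as measured in the mouse spleen. They were chosen by symbol, matched through the unversioned Ensembl identifier, and make up 8 of the 43346 genes listed in the deposited gene tables. All 8 were found, and all 8 passed the minimum of 10 reads in total that the test between libraries required. The study sequenced poly(A)-selected RNA longer than 200 nucleotides from adult spleen (strain C57BL/6J, 8 weeks old), as stranded paired reads of 76 nucleotides. It has 1 group with 2 biological replicates, here called library 1 and library 2, and the labels name no treatment, allele or other tissue. The animals were littermates of both sexes, and the labels give both libraries the same donor entry without saying how many animals went into each. The p-values below therefore compare these 2 libraries and not a condition, and the spread between them may be technical.

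Src family kinases are membrane-anchored enzymes that phosphorylate the cytoplasmic tails of immune receptors and integrins within moments of receptor engagement. Each has an inhibitory tyrosine near its C-terminus, which Csk phosphorylates to hold the kinase closed and which the phosphatase CD45 can clear. In the spleen, Lck and Fyn are known from T cells, Blk and Lyn from B cells, Lyn and Fgr from myeloid cells, and Src and Yes1 from many cell types. The spleen is a mixture of these cells, and in bulk RNA fewer cells of a type and less RNA per cell cannot be told apart.

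In the GENCODE M21 annotation of mm10, Lck (chr4:129548344-129573641, minus strand), Lyn (chr4:3678115-3813122, plus) and Fgr (chr4:132974095-133001910, plus) lie on chromosome 4. Fyn lies at chr10:39368855-39565381 (plus), Src at chr2:157418444-157471862 (plus) and Yes1 at chr5:32611171-32687057 (plus). Blk lies at chr14:63372836-63417037 (minus) and Csk at chr9:57626646-57653631 (minus).

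Several of these genes make more than 1 protein or use more than 1 start site, and the sequences that separate the forms are shown first because the transcript values turn on them. For Lyn, the coding forms differ by 63 bases at the end of exon 2, which Lyn-201 (the longer form LynA) uses and Lyn-202 (LynB) skips.

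Fyn has a pair of alternative coding exons at the junction of the SH2 and kinase domains. The exon of Fyn-201, the form FynT known from T cells, is 156 nucleotides long at chr10:39529919-39530074 on the plus strand (mm10). The exon of Fyn-202, the form FynB known from brain, is 165 nucleotides long and lies just upstream at chr10:39529437-39529601. Capitals mark the bases without a match in the other exon when the pair are aligned end to end. The exons were identical at 95 of 171 aligned columns, or 55.6%, so reads within them separate the forms.
FynT exon: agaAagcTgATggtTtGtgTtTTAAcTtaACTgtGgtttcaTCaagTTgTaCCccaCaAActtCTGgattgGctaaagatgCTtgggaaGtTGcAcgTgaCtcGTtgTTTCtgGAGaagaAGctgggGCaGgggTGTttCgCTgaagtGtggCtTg
FynB exon: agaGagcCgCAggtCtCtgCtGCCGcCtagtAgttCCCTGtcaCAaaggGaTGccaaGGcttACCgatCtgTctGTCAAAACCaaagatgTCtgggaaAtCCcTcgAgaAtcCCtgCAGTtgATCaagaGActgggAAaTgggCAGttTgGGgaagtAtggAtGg

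Src has a microexon of 18 nucleotides at chr2:157458843-157458860 on the plus strand, which is spliced in to make the neuronal form of the kinase. It is shown in capitals between the ends of its neighbouring exons, as in Src-202, because it serves as a negative reference for spleen.
Src neuronal exon with flanks: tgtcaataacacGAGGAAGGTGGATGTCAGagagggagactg

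Lck has a pair of promoters, a proximal one known for activity in thymocytes and a distal one known for activity in mature T cells. Their GENCODE start sites are 15250 nucleotides apart, and both transcripts encode the same kinase. The 250 bases before each RefSeq start site (mm10, minus strand) are shown because the transcripts from them differed in level. The distal window is chr4:129573642-129573891 and the proximal window is chr4:129558373-129558622. The GENCODE first exon of Lck-201 reaches chr4:129558391, so the proximal window includes the first bases of that exon. Capitals mark AGGAAG, the core letters of an ETS factor motif, or its reverse complement CTTCCT. The motif was picked after these sequences had been seen.
Lck distal promoter: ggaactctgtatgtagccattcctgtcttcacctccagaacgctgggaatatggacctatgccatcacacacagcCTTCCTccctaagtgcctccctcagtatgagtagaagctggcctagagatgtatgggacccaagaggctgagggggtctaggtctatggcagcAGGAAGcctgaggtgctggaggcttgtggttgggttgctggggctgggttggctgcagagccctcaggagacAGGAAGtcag
Lck proximal promoter: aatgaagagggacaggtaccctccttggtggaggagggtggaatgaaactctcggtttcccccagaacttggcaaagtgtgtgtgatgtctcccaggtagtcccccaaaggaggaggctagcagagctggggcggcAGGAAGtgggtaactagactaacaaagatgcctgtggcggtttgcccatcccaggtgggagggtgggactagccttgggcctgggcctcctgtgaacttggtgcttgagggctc

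The distal window held 3 such matches and the proximal window 1, and 29.5% of 32851 RefSeq promoter windows of this length held at least 1 on either strand. Neither Lck window held TATAAA, which 12.4% of the windows held on either strand. The distal window had 1 CG dinucleotide and the proximal window 3, against a median of 6.00 over all windows. These are matches of letters and not sites shown to be bound. RefSeq promoter entries were matched for 6 of the 8 genes, all but Lyn and Blk.

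Levels are given as TPM (a share of all transcripts, counted per unit of transcript length, so that genes can be set side by side). Lyn was listed highest, with 351 TPM in the first library and 294 in the second (mean 323 ± 40.0, SD, n = 2), and ranked 218 among 21474 protein-coding genes. Csk, which phosphorylates the inhibitory tyrosine of all the others, followed at 177 and 151 TPM (164 ± 18.4, SD, n = 2). Both were lower in library 2. Lck, the kinase bound to the CD4 and CD8 coreceptors, was at 105 and 97.7 TPM (101 ± 5.20, SD, n = 2). Blk, a kinase largely of B cells, was at 97.1 and 86.0 TPM (91.5 ± 7.88, SD, n = 2). The ranges of Lck and Blk over the 2 libraries did not overlap by gene TPM, but they did by transcripts with a complete coding sequence (Lck 97.6 and 90.7, Blk 97.1 and 86.0 TPM). The deposited bounds on gene TPM also overlapped, at 95.3 to 100 for Lck in library 2 and 94.5 to 98.2 for Blk in library 1.

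Fgr, a kinase of neutrophils, monocytes and macrophages, was at 35.3 and 34.1 TPM (34.7 ± 0.834, SD, n = 2). Fyn, which acts beside Lck in T cells and is also made in many other cells, was at 32.3 and 34.4 TPM (33.3 ± 1.47, SD, n = 2). These 2 could not be ordered, since their ranges overlapped. Src, the founding member of the family, was at 13.4 and 13.1 TPM (13.2 ± 0.212, SD, n = 2). Its deposited bounds, 13.1 to 19.1 and 12.9 to 16.1 TPM, were wider than that SD, and the point values lay near their lower ends. Yes1, its close relative in epithelial and other adherent cells, was at 0.480 and 0.410 TPM (0.445 ± 0.0495, SD, n = 2), from 85 and 95 estimated reads. Yes1 was the only one of the 8 below 1 TPM. By gene TPM the order was thus Lyn, Csk, Lck, Blk, then Fgr and Fyn together, Src and Yes1. The ranges of the point values were apart for 6 of 7 neighbouring pairs.

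Other kinases of the Src and Csk type place these levels. Matk, the second kinase of the Csk type, was at 26.8 and 20.1 TPM, so that Csk exceeded it 6.61-fold and 7.53-fold. Srms was at 1.67 and 1.30 TPM, and Frk, a kinase known from epithelia, at 0.0800 TPM in both libraries.

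**Figure D1:**
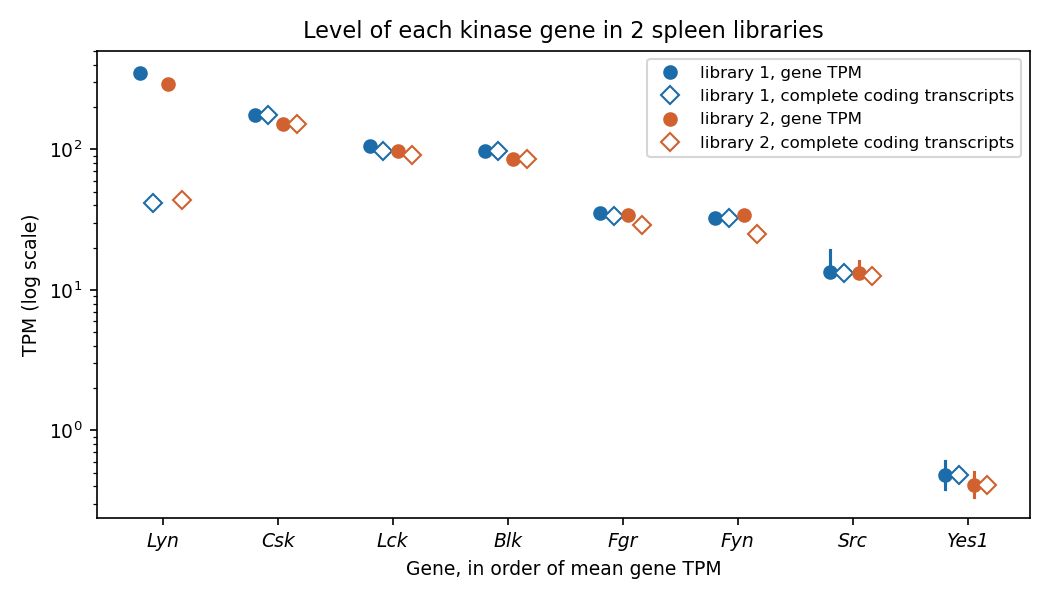
Level of each of the 8 kinase genes in TPM on a log scale, with genes in order of their mean. Filled circles are the gene TPM of library 1 (blue) and library 2 (orange) with the deposited 95% credibility bounds as vertical lines, and open diamonds are the summed TPM of transcripts with a complete coding sequence. The diamonds of Lyn, at 41.8 and 44.0, lie far below its circles, at 351 and 294, while the widest gap among the other genes is that of Fyn in library 2, at 34.4 and 25.0.

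The first place of Lyn rested on 1 short noncoding transcript. Lyn-204 is a processed transcript of 687 nucleotides with 2 exons. It shares the start of the gene, reads through the end of exon 2 and stops 315 nucleotides into intron 2. It was assigned 309 and 250 TPM, which was 88.0% and 85.0% of the gene's TPM but 51.8% and 46.1% of its estimated reads (7048 of 13600 and 6465 of 14018 reads). TPM divides reads by length, so a short transcript holds a larger share of TPM than of reads.

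Lyn-201, which encodes LynA, was at 41.4 and 34.4 TPM. Lyn-202, which encodes LynB, was at 0.480 and 9.61 TPM. LynB was far lower than LynA in library 1 and less so in library 2. The deposited bounds for Lyn-202 were 0.202 to 1.05 TPM in library 1 and 6.13 to 13.4 TPM in library 2, so the libraries were apart. Of the sum of both coding forms, LynB was therefore 1.15% in library 1 and 21.8% in library 2. The coding forms added up to 41.8 and 44.0 TPM (42.9 ± 1.57, SD, n = 2), which put Lyn at rank 4 of the 8, below Csk, Lck and Blk.

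The choice of transcripts therefore turned ratios around. By gene TPM, Lyn was 3.34 and 3.01 times Lck. By transcripts with a complete coding sequence it was 0.429 and 0.486 times Lck. Against Blk, the ratio went from 3.62 and 3.43 to 0.431 and 0.512. Csk was 0.279 and 0.270 of the summed TPM of the 7 Src family genes, and 0.561 and 0.526 when coding transcripts alone were summed. Lck over Fyn stayed at about the same size, at 3.25 and 2.84 by gene TPM and 3.02 and 3.63 by coding transcripts.

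Sequence shared with other genes was counted at read length. Of 4065 stretches of 76 nucleotides in Lyn transcripts, 14.3% also occurred in transcripts of Gm11787, an unprocessed pseudogene, or Gm26857, a noncoding RNA on the opposite strand. Those genes had 37.8 and 38.4 reads and 98.0 and 92.0 reads, few beside Lyn's. How strand was treated in counting is not given in these sources, so reads of Lyn and of Gm26857 over their overlap cannot be told apart. None of the 240 such stretches in the intron part of Lyn-204 occurred in a transcript of another gene. The origin of the reads assigned to Lyn-204 was not tested.

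The kinases themselves share little exact sequence at read length. The coding sequences of the 7 Src family genes were 61.0% to 72.1% identical over 21 pairs, and 60.3% to 65.2% identical to Csk. The longest stretch shared by any pair was 23 bases, shorter than a read of 76. Beside Lyn, only Yes1 shared read-length stretches with other genes (7.40%, with Gm10461 and Hspa4l), and the other 6 shared 0.

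Most of the Lck level was assigned to the transcript from the distal promoter. Lck-202, with the distal first exon, was at 91.1 and 82.4 TPM, or 86.7% and 84.3% of the gene. Lck-201, with the proximal first exon, was at 6.14 and 7.12 TPM, or 5.84% and 7.28%. Lck-202 exceeded Lck-201 14.8-fold and 11.6-fold, and the deposited bounds of these 2 transcripts did not meet in either library (87.9 to 92.5 against 4.97 to 7.34 TPM in library 1). Lck-208, a coding transcript that also starts near the proximal site, was at 0.410 and 1.15 TPM. Lck-207, a noncoding transcript with a retained intron, begins within the proximal first exon and was at 4.42 and 3.92 TPM. Neither is in this ratio, which sets Lck-202 against Lck-201 alone and would be smaller with them.

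Fyn was mostly the T cell form, by a margin that differed between libraries. Fyn-201, with the FynT exon, was at 27.3 and 18.3 TPM, or 84.5% and 53.3% of the gene. Fyn-202, with the FynB exon, was at 0.850 and 3.94 TPM, with deposited bounds of 0.273 to 1.77 and 2.50 to 5.64 TPM. Fyn-201 was 32.1 times Fyn-202 in library 1 and 4.65 times in library 2. Fyn-204, with the same coding length as Fyn-201 (1602 nucleotides), was at 0.600 and 0.900 TPM and is not in this ratio. FynT was thus above FynB in both libraries, and the size of the ratio was not stable.

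Fyn-208, a partial transcript with another first exon 909 nucleotides upstream, was listed at 0 in library 1 and at 8.88 TPM from 224 reads in library 2. It made up 25.8% of the gene's TPM there. The effective length of Fyn, the mean over its transcripts weighted by abundance, was 3147 nucleotides in library 1 and 2455 in library 2 beside this. Fyn-206, which starts downstream and lacks the alternative exon, held 11.0% and 5.37%.

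The neuronal exon of Src was not detected. Src-202, whose microexon is printed above, was listed at 0 in both libraries, with deposited upper bounds of 0.609 and 0.416 TPM. Src-203, which also has the longer coding sequence of 1623 nucleotides, was likewise listed at 0. Src-201 held 81.0% and 79.5% of the gene, and Src-204, with a first exon 31391 nucleotides downstream, 18.3% and 17.2%. These shares lay close together in the 2 libraries, but they depended on the unit. By posterior mean TPM, Src-201 held 68.2% and 67.9%.

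Fgr-201 held 91.0% and 72.3% of Fgr. The rest was mainly Fgr-203 and Fgr-204, which have the same exons and start 3014 nucleotides downstream of Fgr-201. They were listed at the same value, 1.41 TPM each in library 1 and 4.26 TPM each in library 2, since no read can separate them. The longer of the 2 transcripts of Yes1 held 66.9% of it in library 1 and 100% in library 2, where the shorter was listed at 0, but from only 85 and 95 reads. Blk and Csk have 1 listed transcript each, Blk-201 and Csk-201. Of 37 listed transcripts of the 8 genes, 28 had reads in at least 1 library and 11 had deposited bounds that did not meet between libraries. Neither count was made over all listed transcripts, so neither can be read as particular to these genes.

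**Figure D2:**
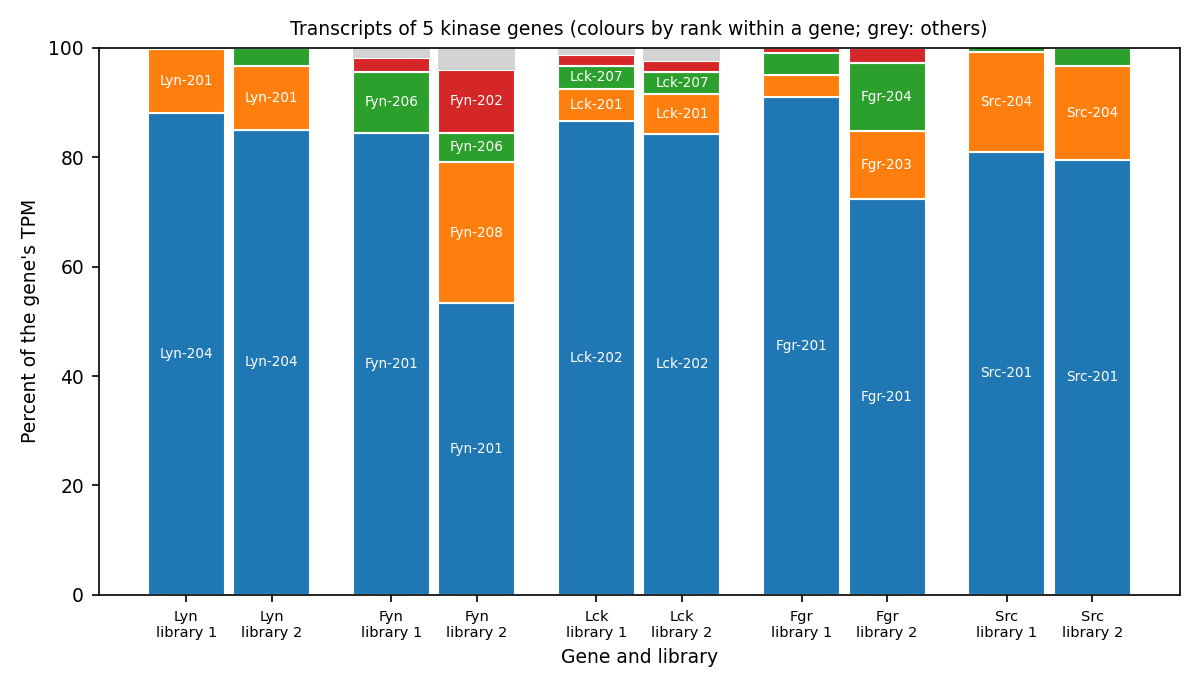
Percent of each gene's TPM held by its transcripts, for Lyn, Fyn, Lck, Fgr and Src in each library, with colours by rank within a gene and grey for transcripts beyond the first 4. Lyn-204 fills 88.0% and 85.0% of Lyn and Lck-202 fills 86.7% and 84.3% of Lck, while Fyn-201 falls from 84.5% in library 1 to 53.3% in library 2.

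**Figure D3:**
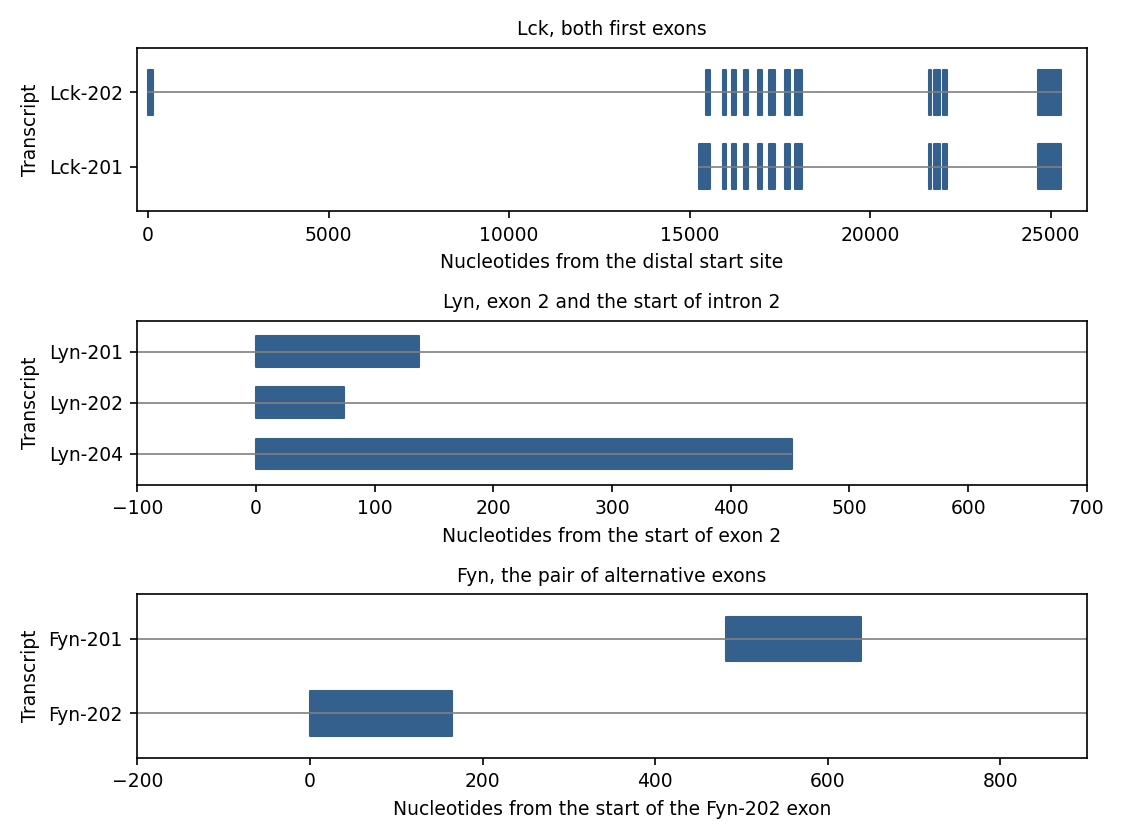
Exons (boxes) and introns (lines) to scale, in nucleotides from the distal start site of Lck, from the start of Lyn exon 2 and from the start of the Fyn-202 exon, with 1 row per transcript. The Lck start sites lie 15250 nucleotides apart, the last exon of Lyn-204 runs 315 nucleotides past exon 2, and the alternative exons of Fyn lie side by side without overlap.

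The 2 libraries were then compared read for read, to ask whether they differ beyond counting error. Of the 8 genes, 3 differed, all lower in library 2 (exact binomial test on scaled counts, Benjamini-Hochberg adjusted over 17547 genes). Over all genes tested, 50.7% differed by the same test, 24.1% higher and 26.6% lower in library 2, so 3 of 8 is not above that share. The share was not matched for read depth, which raises the call rate of this test. The median log2 ratio of the 8 was -0.01 and their median absolute log2 ratio 0.05, against 0.25 over all genes tested and 0.20 over those at 1 TPM or more. All 8 lay within 2-fold, as did 16272 of all genes tested.

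Fyn had the largest of the called differences, with 4895 reads in library 1 and 4453 in library 2. Its scaled counts were 0.898-fold in library 2 (95% interval 0.862 to 0.935, adjusted p = 9.3e-07, exact binomial test). Its TPM went the other way, with a difference of 0.09 in log2(TPM + 1), beside the change in effective length given above, so its direction between the libraries depended on the unit. Csk had 21650 and 20356 reads, a fold of 0.928 (0.910 to 0.946, adjusted p = 1.6e-13, exact binomial test). Blk had 10576 and 10328 reads, a fold of 0.964 (0.938 to 0.991, adjusted p = 0.0181, exact binomial test). All 3 differences passed the test and were small in size.

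The other 5 did not pass the test. Lck had 9050 and 9303 reads, with a fold of 1.01 (0.986 to 1.04). Lyn had 13600 and 14018 reads, with a fold of 1.02 (0.994 to 1.04). For Lyn this holds for all reads together: its coding transcripts had 6543 and 7550 reads, its effective length was 805 and 902 nucleotides, and its gene TPM was lower in library 2, with deposited bounds of 341 to 356 and 286 to 299. Fgr had 5166 and 5114 reads (0.977, 0.940 to 1.02) and Src 2323 and 2440 (1.04, 0.979 to 1.10). Yes1 had the widest interval, 1.10 with bounds of 0.815 and 1.5, so a difference of that size was not detectable at this depth.

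These intervals cover counting error only. With the spread between the libraries added (edgeR's exact test, both libraries taken as 1 group), 0 of the 8 passed, 0 had an unadjusted p under 0.05, and 0.69% of all genes passed. That spread was estimated over the genes from these same 2 libraries, so the difference tested is also the yardstick. Not passing is therefore no sign that the libraries agree. With 1 library on each side, a permutation test over libraries cannot reach 0.05.

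**Figure D4:**
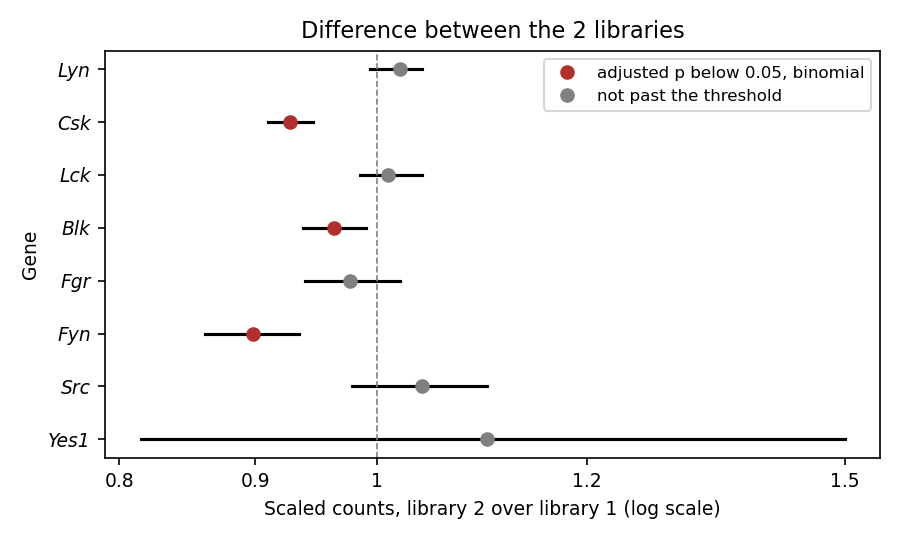
Scaled counts in library 2 over library 1 on a log axis for each of the 8 genes, with 95% intervals for counting error. Red points passed the exact binomial test at an adjusted p below 0.05 (Csk, Blk and Fyn, all below 1) and grey points did not, and the interval of Yes1 spans 0.815 to 1.5.

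Other cell types' markers also moved between the libraries. All 4 erythroid markers were higher in library 2, with a median log2 ratio of 0.90 and a summed level of 109261 and 173561 TPM. All 18 genes of the pancreatic acinar list, none at 0, differed as well, 14 higher and 4 lower, with summed levels of 113861 and 91662 TPM. With haemoglobin and acinar genes left out of the TPM scale, the mean TPM of the 8 kinases was higher, with Lyn going to 506 from 323 and Csk to 258 from 164. Their part in the differences of the kinases was not tested. Lymphocyte markers were present, with Cd79a at 1130 and 863 TPM and Cd79b at 530 and 499 TPM for B cells. For T cells, Cd3e was at 36.8 and 38.5 TPM and Cd3d at 20.5 and 24.9 TPM. Of these lists, 5 of 5 B cell markers (median log2 ratio 0.07) and 5 of 5 T cell markers (0.20) differed, 3 higher and 2 lower in each. Of all genes tested 50.7% differed, a share not matched to the markers for read depth. The libraries held 49686344 and 51393345 estimated reads on genes. TPM in library 2 was 0.903 of that in library 1 at the median gene at 1 TPM or more. Most genes at that level were thus lower. Of the 8 kinases, 7 were lower by gene TPM, all but Fyn, so this is not read as particular to them. Over all 43346 listed genes, detected or not, 12495 were lower. By complete coding transcripts Fyn was lower in library 2, at 32.3 and 25.0 TPM, and Lyn higher, at 41.8 and 44.0 TPM.

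The genes that work with these kinases were read by the same test, in lists chosen by role. Their counts are to be read against the 50.7% of all genes that differed, 24.1% higher and 26.6% lower in library 2. Among 3 other kinases of the Src and Csk type, 1 was lower in library 2, Matk (2098 and 1863 reads, log2 ratio -0.19, adjusted p = 1.2e-04, exact binomial test). Srms (189 and 162 reads) and Frk (16 and 19 reads) did not pass. Among 16 phosphatases and adaptors that set Src family activity, 3 were higher, 8 lower and 5 did not pass, with a median log2 ratio of -0.07 against 0.00 over all genes tested. Ptpn6, the phosphatase SHP-1 that docks on inhibitory receptors, was at 300 and 254 TPM, with a log2 ratio of -0.11 in counts. Dok3, an adaptor that dampens B cell and myeloid receptor signals, was at 318 and 215 TPM and had the largest called difference of its list, a log2 ratio of -0.44.

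Among 17 receptors, adaptors and substrates of Lck and Fyn in T cells, 10 were higher in library 2, 3 lower and 4 did not pass, with a median log2 ratio of 0.15. Lat, the membrane scaffold of T cell receptor signalling, was at 137 and 105 TPM, with a log2 ratio of -0.25 in counts. Plcg1, the phospholipase recruited to Lat, was at 52.2 and 38.1 TPM, yet its scaled counts were higher in library 2, with a log2 ratio of 0.09. Cd3d, a chain of the T cell receptor complex, was at 20.5 and 24.9 TPM and had a log2 ratio of 0.41. Lck itself, at a log2 ratio of 0.02, did not pass the test, and Fyn was lower.

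Among 15 receptors, adaptors and substrates of Lyn and Blk in B cells, 9 were higher, 4 lower and 2 did not pass, with a median log2 ratio of 0.12. Cd79a and Cd79b, which carry the signal of the B cell receptor, differed by log2 ratios of -0.26 and 0.07. Fcgr2b, the inhibitory Fc receptor whose tail Lyn phosphorylates, was at 43.5 and 65.8 TPM and had the largest called difference of the list, a log2 ratio of 0.55. Chains of the same receptor thus lay on either side of 0.

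Among 13 receptors, adaptors and substrates of Fgr and Lyn in myeloid cells, 4 were higher, 5 lower and 4 did not pass, with a median log2 ratio of -0.02. Tyrobp, the adaptor DAP12, was at 599 and 472 TPM (log2 ratio -0.17), and Fcer1g, the shared Fc receptor gamma chain, at 214 and 276 TPM (log2 ratio 0.54). Pram1, an adaptor of the granulocyte lineage, had 75 estimated reads in library 1 and 0 in library 2. With 3 reads allowed for the count of 0, it was 25.3-fold lower there. That value takes the 75 reads without their error and does not cover error in how reads were assigned, so it is no lower limit. Among 12 adhesion adaptors and substrates of Src, Yes1 and Fyn, 6 were higher, 4 lower and 2 did not pass, with a median log2 ratio of 0.11. Ptk2b, the focal adhesion type kinase PYK2, was at 147 and 124 TPM (log2 ratio -0.13). Tns1, the adhesion protein tensin, was at 89.3 and 69.2 TPM (log2 ratio 0.35), and Ctnnd1, the Src substrate p120 catenin, at 11.1 and 13.2 TPM (log2 ratio 0.39). With the spread between libraries added, itself estimated from these 2 libraries, edgeR called 1 gene over the 6 lists, Pram1.

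**Figure D5:**
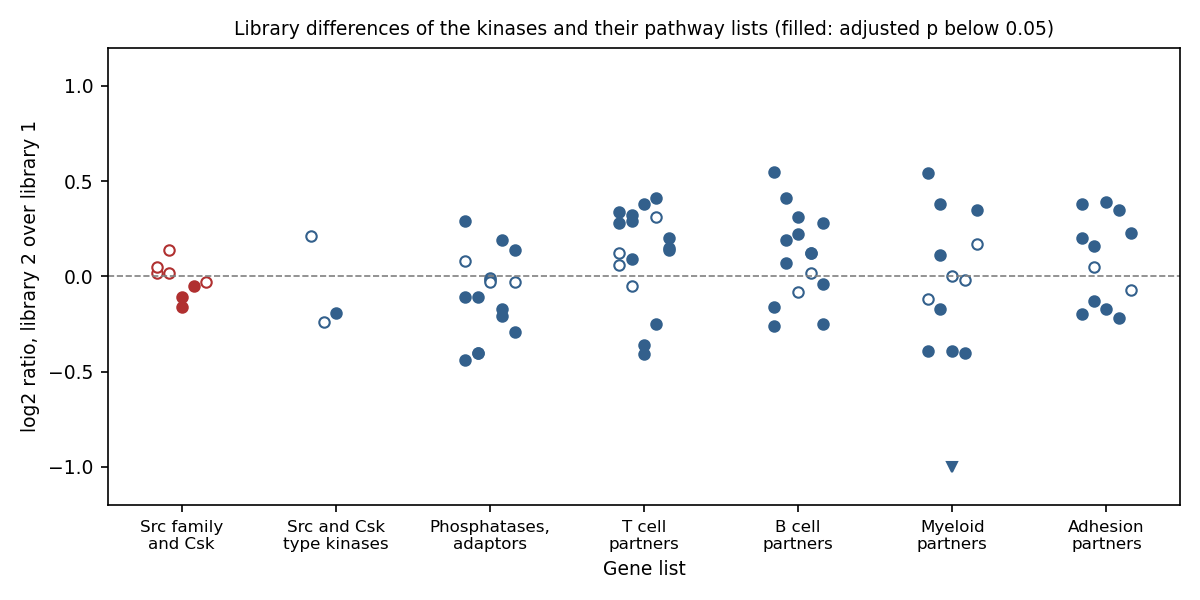
Log2 ratio of scaled counts, library 2 over library 1, for the 8 kinase genes (red) and each gene of 6 lists by role (blue), with filled points at an adjusted p below 0.05 by the exact binomial test. The 8 kinases lie between -0.16 and 0.14, and the triangle at the lower edge is Pram1, whose 0 reads in library 2 put it off the axis.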

How the data were processed

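Gene and transcript values of 2 mouse spleen libraries were taken as deposited. Per the deposited notes, the authors made them from transcriptome alignments of 1 replicate per file, with assembly mm10 and GENCODE annotation M4. For the aligner, the quantifier and how strand was treated: not given in the sources used here. Analysed as deposited were the expected count, TPM, FPKM and posterior mean TPM, the percent of a gene held by each transcript, and the signal bounds, which are the authors' 95% credibility limits on TPM. Junction and contig files on another assembly were not used here.

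Symbols were matched through GENCODE M21 for 98.0% of genes, and 33 of the 37 transcripts of the 8 genes have the same length in M21. Of the 4 that differ, 1 is Blk-201, 1 is Csk-201 and 2 are those of Yes1. Expected counts were rounded, scaled by TMM (edgeR 4.0.16, R 4.3.3) and compared between libraries, for genes with 10 or more in total, by an exact two-sided binomial test (Benjamini-Hochberg adjusted p, threshold 0.05). Log2 ratios carry a prior count of 2. The procedure was tested on simulated counts that held counting error alone. That test does not cover the spread between these 2 libraries. Spike-ins, 0.670% and 1.24% of expected counts, were left out. Python 3.11.15 and scipy 1.17.1 were used.

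The 8 genes and the lists were chosen with earlier results of these data known. Named from each list were the 2 genes of highest mean TPM and the called gene with the largest absolute log2 ratio, the other kinases of the Src and Csk type (1 item is not reported here), and the first 2 genes of marker lists a result turned on. Transcripts named were the leading one of each gene and any with a mean share of 10% or more. Others were named for the exon or promoter that separates them, after their values were seen. The other marker lists were read by the same test, where 50.7% of all genes differed, 24.1% higher and 26.6% lower in library 2. That share was not matched for read depth. Those that differed were NK cell 4 of 4 (3 higher in library 2), neutrophil and monocyte 6 of 6 (3 higher) and macrophage 5 of 6 (5 higher). Next were dendritic cell 2 of 4 (2 higher), platelet 3 of 4 (1 higher) and endothelium 4 of 4 (3 higher). Stroma had 3 of 5 (1 higher) and smooth muscle 3 of 4 (0 higher). Alternatives were other scalings, filters and deposited units, leaving out each library, edgeR's exact test and, chosen after seeing the data, transcripts with a complete coding sequence.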

Additional observations from a re-analysis of the deposited data

How the results depend on the processing

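Of 105 values recomputed with both libraries, 75 were kept, 21 moved further and 9 reversed. A tested result was kept if it held its direction and call. A level, share or ratio was kept if it moved by less than the spread between libraries, and a count if by less than 1.5 times. Some of the 75 could not change, or only in direction. FPKM keeps the order and ratios of TPM within a library, and Blk and Csk have 1 transcript each. A prior count of 0.5 and log2(TPM + 1) differences took over the call of the main test. Where the libraries lay far apart, a large move was still kept, as for Fyn-201 from 68.9% to 81.5% by expected counts. With haemoglobin and acinar genes left out, mean TPM was 506 for Lyn, 258 for Csk, 160 for Lck, 144 for Blk, 54.6 for Fgr, 52.7 for Fyn, 20.8 for Src and 0.698 for Yes1. With complete coding transcripts alone, chosen after seeing the data, it was 42.9 for Lyn, 94.2 for Lck, 28.7 for Fyn, 31.2 for Fgr and 13.0 for Src. The mean ratio of Lyn over Lck then reversed to 0.457 and that of Lyn over Blk to 0.472, and Csk over the summed family was 0.543. By posterior mean TPM, Src was at 14.9 and Src-201 held 68.1% of it. By expected counts, Lyn-204 held 49.0% of Lyn, Lck-202 90.7% of Lck and Src-201 83.1% of Src. As log2(TPM + 1) differences, 5 log2 ratios reversed, Fyn to 0.09, Lyn to -0.25, Lck to -0.10, Yes1 to -0.07 and Src to -0.03, and of these the first alone had passed the count test. With library totals, Lck and Lyn reversed to -0.01 each and did not pass. edgeR's exact test with the spread between libraries called 0 of the 8 genes in place of 3, with 0 at an unadjusted p under 0.05, and 121 of all genes in place of 8902, with 748 at an unadjusted p under 0.05. The spread in that test came from the same 2 libraries that it compared. Leaving out a library (40 further values) returns the value of the other, already given, and is no check of stability. Comparisons between the libraries cannot be made with 1 left out. No paired analysis was possible because the study has 1 group. Depth limits Yes1, with 85 and 95 reads. The causes were not tested.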
